A study of Mus musculus with 6 samples.

Results

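The genes described are 38 of the endoplasmic reticulum (ER) folding machinery and of the unfolded protein response, from chaperones and disulfide enzymes to stress sensors and the degradation apparatus. They were chosen by name, with earlier results of these data known. Each was read from the 1 probe set whose platform annotation gives that symbol alone. Of the 38 genes, 36 were measured among 21996 named genes: 35 matched by symbol, and Ero1l was found by gene number under its present symbol, Ero1a. Pdia4 and Sec61b had no probe set of their own name alone and were not analysed here.

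The samples were adipocytes made from C3H10T1/2, a mouse mesenchymal cell line that forms fat cells in culture, at 9 days of differentiation. Adenovirus was given to all 6 cultures for 72 h, at a multiplicity of infection of 50, and expressed a short hairpin RNA from the U6 promoter. The hairpin was a scrambled control in 3 cultures (scramble) and directed at Zc3h10, which encodes an RNA-binding zinc finger protein, in the other 3 (Zc3h10 shRNA). The labels call the cultures of each group biological replicates, and a culture without virus is not among the groups.

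Secreted and membrane proteins fold in the ER with the help of the chaperone BiP (gene Hspa5), its DnaJ partners, lectin chaperones and enzymes that form disulfide bonds. When unfolded proteins accumulate, the membrane sensors IRE1 (Ern1), PERK (Eif2ak3) and ATF6 are activated. IRE1 splices the messenger RNA of Xbp1 into a form that encodes a transcription factor, PERK slows translation, and ATF6 is cut in the Golgi and moves to the nucleus. XBP1 and ATF6 then induce chaperones and the genes of ER-associated degradation, which returns misfolded proteins to the cytosol for the proteasome. Adipocytes secrete adipokines and lipoprotein lipase and rely on this machinery; XBP1 has a known role in fat cell formation.

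Values are probe set intensities on a linear scale, and changes are mean log2 of Zc3h10 shRNA minus mean log2 of scramble, each given ± its standard error from limma. A gene passed where its Benjamini-Hochberg adjusted p over all 33079 probe sets was under 0.05. Median intensity was 15.6 to 16.1 on the 6 arrays, and the number of arrays limits the precision. Zc3h10 itself averaged 33.4 ± 6.77 (SD, n = 3) with the scramble hairpin and 26.1 ± 3.72 (SD, n = 3) with its own, and its log2 change, −0.34 ± 0.17, missed the threshold (adjusted p = 0.301). Of 11 markers of mature adipocytes, 10 lay above background and 10 fell. Their summed intensity was 21660 to 23990 on the scramble arrays and 11660 to 12690 on the shRNA arrays. Of 9 measured markers of progenitors and fibroblasts, 4 rose and 1 fell. Averaged over the 6 arrays, Cd34, which did not pass, and Fap, which rose from a mean of 11.7 to 36.4, were at background. The summed intensity of the 9 was 4819 to 5447 on the scramble arrays and 6190 to 6492 on the shRNA arrays. Markers of other cells were mostly at background: 5 of 6 for macrophages (all but Cd68), 5 of 5 for endothelium, and 3 of 5 each for skeletal muscle and for bone and cartilage. Of the bone and cartilage markers 2 fell, Ibsp from a mean of 63.9 to 21.2 (adjusted p = 0.00171) and Bglap, at background, from 20.2 to 14.4 (adjusted p = 0.0162). The summed intensity of these 5 was 183.7 to 208.8 on the scramble arrays and 123.4 to 164.9 on the shRNA arrays. Background here is a mean log2 of 4.37 or less: 1381 genes of olfactory and vomeronasal receptors were taken as silent, and this is where their central 95% ended. The part of the marker shifts in the results that follow was not tested, and fewer cells of a type cannot be told apart from less RNA per cell.

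The ER genes did not move as a block. Of the 36 measured, 6 rose (Pdia5, Dnajc10, Herpud1, Atf6b, Sdf2l1 and Manf), 5 fell (Dnajb9, Xbp1, Derl1, Ero1a and Pdia6) and 25 did not pass. The largest changes were in opposite directions: Pdia5, a protein disulfide isomerase, at 1.13 ± 0.18 and Dnajb9, a BiP co-chaperone, at −1.12 ± 0.14. These were also the 2 genes past a 2-fold change. Hspa5 had nearly the same mean in both groups. The median log2 change of the 36 genes was 0.07, beside 0.01 for all named genes.

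The 11 genes that passed are 30.6% of those measured, beside 12.1% of all named genes and 9.79% of all probe sets. As the genes were chosen with earlier results of these data known, these shares are a description and not a test. The background by direction was 5.51% higher and 6.6% lower. As 35 of the 36 genes lay above background (all but Derl3), the named genes above that limit were also counted: 21.7% of them passed, 9.75% higher and 12% lower. Intensities of the groups did not overlap for 23 of the 36 genes, beside 31.9% of all named genes and 50.2% of those above background. The count of 11 became 7 when scramble replicate 1 was left out, and 6 when scramble replicate 2, scramble replicate 3, shRNA replicate 2 or shRNA replicate 3 was left out. It became 17 without the dimmer probe sets, those below the median level, 19 with limma's prior following intensity and 22 with an offset of 32 before log2 (14 higher and 8 lower). The count over all probe sets moved too: it was 3238 of 33079, and 1807 to 2448 in the same runs with an array left out. It became 4454 of 16540 without the dimmer probe sets, 4492 of 33079 with the prior following intensity and 4457 of 33079 with the offset.

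**Figure D1:**
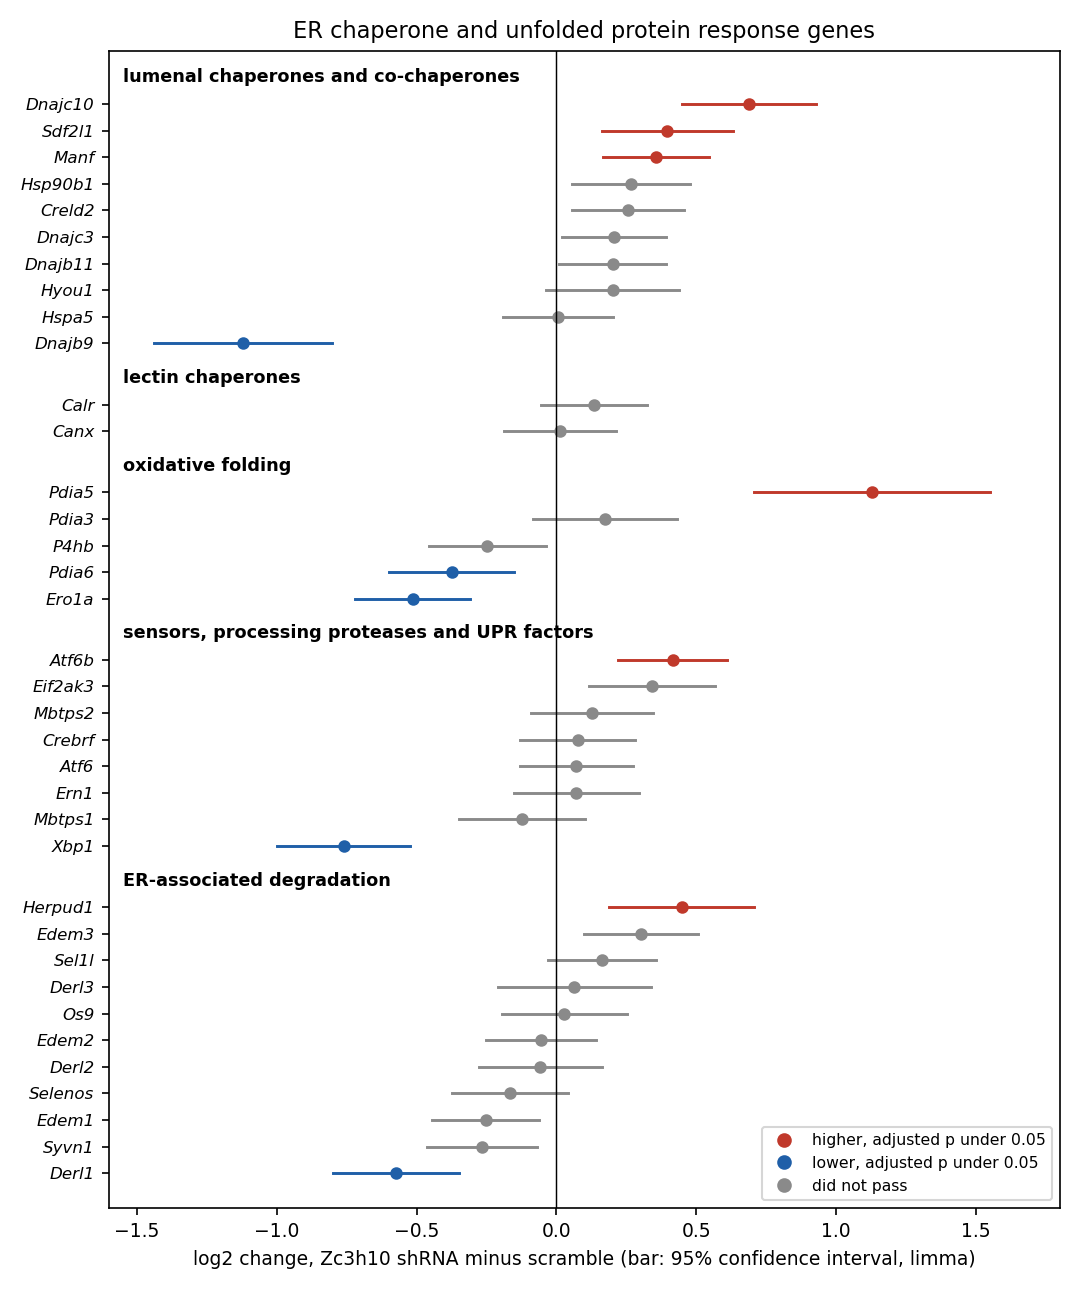
Log2 change (x axis, Zc3h10 shRNA minus scramble) of the 36 measured ER genes, grouped by role, with points for the estimate and bars for the 95% confidence interval of the limma fit. The 6 genes that rose (red) and the 5 that fell (blue) are spread over 4 of the 5 role groups, and the 25 that did not pass (grey) lie between −0.27 and 0.34.

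**Figure D2:**
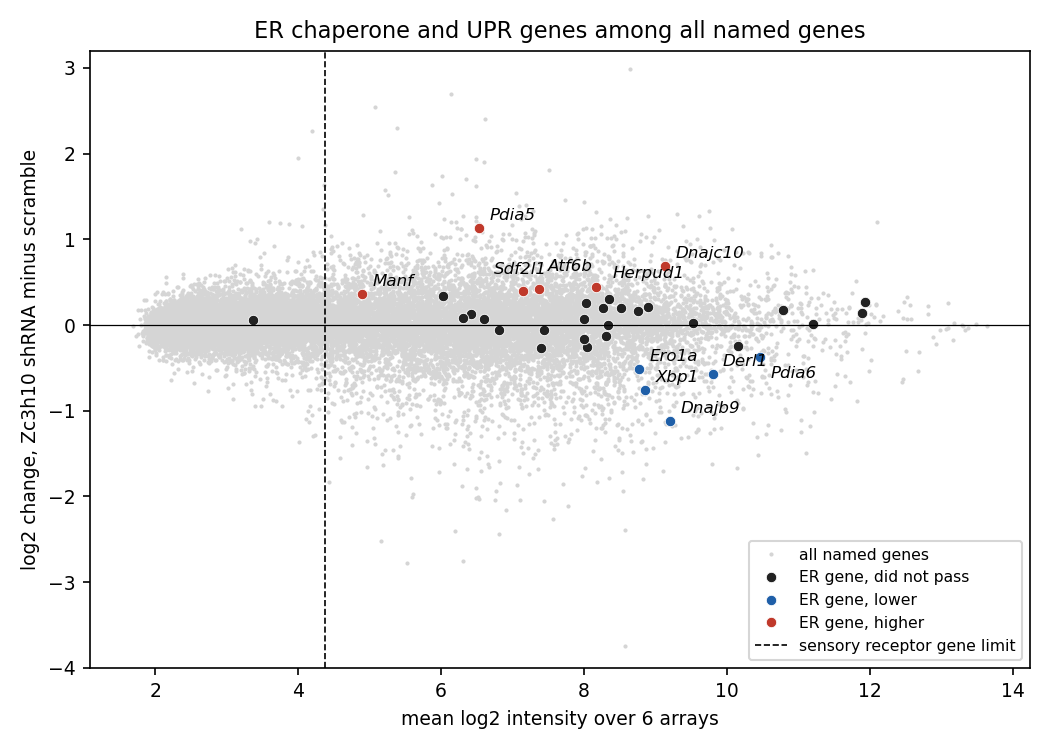
Log2 change (y axis) against mean log2 intensity over the 6 arrays (x axis) for 21996 named genes (grey), with the 36 ER genes as larger points, black where they did not pass. The dashed line is the background limit of 4.37; Derl3 is the ER gene to its left, and the changed ER genes lie well inside the range of all genes, −3.74 to 2.99.

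Many of these genes are known targets of ATF6 and XBP1 through the ER stress response element, ERSE, so promoter sequence was set beside the changes. RefSeq (GRCm38.p6) windows from 250 bases before to 50 after the start site were found for 32 of the 36 genes; Hyou1, Manf, Atf6 and Derl1 had no entry. ERSE was searched as CCAAT, then 9 bases of any kind, then CCACG, and the related ERSE-II as ATTGG, then 1 base of any kind, then CCACG. Both strands were read, with no mismatch allowed, and ATTGG is CCAAT on the opposite strand. Exact ERSE matches were found in 9 of the 32 genes (28.1%), beside 39 of 32851 windows of all genes (0.119%). ERSE-II matches were found in 2 of the 32 genes (6.25%), beside 12 windows of all genes (0.0365%). The windows of all genes include those of the 32. The ERSE-II of Dnajb11 lies after the start site, at bases 8 to 18 of the transcript. An ER gene was counted if any of its windows matched, and the background was counted by single windows. A gene with several start sites therefore had more chances to match. The UPRE core TGACGTGG and the amino acid response core TGATGNAAT were in no window of these 32 genes, beside 0.676% and 0.965% of all windows. A match is a description of the letters, not a bound site, and the element was first defined on promoters of ER chaperones.

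The matched sites show which windows hold an exact match to the element that ATF6 and XBP1 are known to use. Imperfect or more distant elements were not searched for, so an unlisted gene may still carry one. Each is read in the orientation of the motif, with the fixed letters in capitals and the spacer in lower case; Hsp90b1 has 2.
Hspa5 ERSE: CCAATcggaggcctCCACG
Hsp90b1 ERSE, far site: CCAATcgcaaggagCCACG
Hsp90b1 ERSE, near site: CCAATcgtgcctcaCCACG
Calr ERSE: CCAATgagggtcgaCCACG
Canx ERSE: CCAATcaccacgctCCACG
Dnajc3 ERSE: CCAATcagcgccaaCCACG
Creld2 ERSE: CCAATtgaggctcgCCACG
Syvn1 ERSE: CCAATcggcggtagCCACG
Derl3 ERSE: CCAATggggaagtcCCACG
Pdia6 ERSE: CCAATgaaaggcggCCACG
Herpud1 ERSE-II: ATTGGgCCACG
Dnajb11 ERSE-II: ATTGGcCCACG

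Of these 11 genes, Herpud1 rose, Pdia6 fell and 9 did not pass, with a median log2 change of 0.13 and a range of −0.38 to 0.45. Of the 21 genes with a window and no exact match, 4 rose and 3 fell, with a median of 0.07 and a range of −1.12 to 1.13. Beside these counts, 12.1% of all named genes and 21.7% of those above background passed. With 1 array left out, Herpud1 and Pdia6 passed only without shRNA replicate 1. A difference between genes with and without a match was not tested. The 250 bases before the start are printed for Hspa5 (chr2:34771840-34772089, plus strand), which did not pass. They follow for Herpud1 (chr8:94386179-94386428, plus strand), which rose, and for Pdia6 (chr12:17266339-17266588, plus strand) and Dnajb9 (chr12:44210069-44210318, minus strand), which fell. Capitals mark the ERSE or ERSE-II in the first 3 and, in Dnajb9, which has neither in full, the single words CCAAT and CCACG.
Hspa5: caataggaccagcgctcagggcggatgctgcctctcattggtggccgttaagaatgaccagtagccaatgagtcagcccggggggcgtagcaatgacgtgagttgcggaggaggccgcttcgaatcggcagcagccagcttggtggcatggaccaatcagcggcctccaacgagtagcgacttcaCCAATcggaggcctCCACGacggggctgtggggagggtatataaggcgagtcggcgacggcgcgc
Herpud1: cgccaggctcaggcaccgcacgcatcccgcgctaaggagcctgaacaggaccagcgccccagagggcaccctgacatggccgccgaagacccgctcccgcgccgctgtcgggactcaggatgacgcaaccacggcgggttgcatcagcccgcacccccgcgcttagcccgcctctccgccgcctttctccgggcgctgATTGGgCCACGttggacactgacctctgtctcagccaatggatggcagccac
Pdia6: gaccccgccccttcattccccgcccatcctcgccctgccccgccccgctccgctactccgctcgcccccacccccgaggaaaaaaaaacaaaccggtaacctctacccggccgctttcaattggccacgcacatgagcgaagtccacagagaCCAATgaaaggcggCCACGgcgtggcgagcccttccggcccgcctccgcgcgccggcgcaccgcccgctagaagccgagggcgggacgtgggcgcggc
Dnajb9: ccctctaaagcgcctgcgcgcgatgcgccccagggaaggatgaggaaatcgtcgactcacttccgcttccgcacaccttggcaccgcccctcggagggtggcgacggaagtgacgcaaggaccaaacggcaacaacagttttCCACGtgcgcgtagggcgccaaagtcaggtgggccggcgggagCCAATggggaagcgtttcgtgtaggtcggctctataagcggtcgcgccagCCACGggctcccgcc
The Hspa5 element lies 65 to 47 bases before the start, that of Pdia6 98 to 80 bases before it and that of Herpud1 52 to 42 bases before it. The single words were frequent: CCAAT was in 24 of the 32 genes (75%), beside 37.4% of all windows, and CCACG in 26 of the 32 (81.2%), beside 32.8% of all windows. These shares too set genes, by any of their windows, beside single windows.

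Among stress sensors and their factors, Xbp1 fell, Atf6b rose, and the transcripts of the sensors Ern1, Eif2ak3 and Atf6 did not pass. The array gave 1 value for Xbp1, with none for its spliced and unspliced forms apart. Xbp1 had intensities of 549, 596 and 665 on scramble arrays 1 to 3. On shRNA arrays 1 to 3 it had 375, 353 and 338. The groups did not overlap, and the lowest scramble array was well above the highest shRNA array. The log2 change was −0.76 ± 0.10, or 1.70-fold lower (limma, adjusted p = 0.00336). With each array left out in turn it stayed between −0.83 and −0.69 and passed each time (largest adjusted p = 0.0199).

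Ern1, the sensor kinase and nuclease that splices Xbp1, had intensities of 101, 91.0 and 93.8 on the scramble arrays and 96.0, 94.96 and 109 on the shRNA arrays. The groups overlapped, and the log2 change of 0.07 had a 95% confidence interval of −0.15 to 0.30 (adjusted p = 0.755). Atf6, the membrane-bound factor, had 252, 250 and 248 on the scramble arrays and 260, 249 and 281 on the shRNA arrays. Its log2 change was also 0.07, with an interval of −0.13 to 0.27 (adjusted p = 0.723). For neither sensor transcript was a difference detectable with these arrays.

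Eif2ak3, the gene of PERK, had intensities of 55.0, 56.1 and 62.9 on the scramble arrays and 71.3, 78.9 and 70.2 on the shRNA arrays. All 3 shRNA arrays were above all 3 scramble arrays, but the log2 change, 0.34 ± 0.10, missed the threshold (adjusted p = 0.0701). It passed with dim probe sets left out, with an offset of 32, with an intensity trend in the prior and with the mean of all probe sets of a gene. These were 5 of the 12 alternatives that kept every array. The filters on dim probe sets and the mean, which was tested over named genes alone, adjusted p over fewer tests than the main fit. With any one array left out Eif2ak3 did not pass (limma, adjusted p = 0.082 to 0.198). Atf6b, the paralog of Atf6, had 141, 144 and 146 on the scramble arrays and 182, 196 and 197 on the shRNA arrays. Every shRNA array was above every scramble array, and the log2 change was 0.42 ± 0.08 (1.33-fold higher, adjusted p = 0.0191). Without shRNA replicate 1 it passed (adjusted p = 0.0301); without any one of the other 5 arrays it did not (adjusted p = 0.0589 to 0.0751).

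Mbtps1 and Mbtps2, the Golgi proteases that cut ATF6 and also the sterol regulators SREBP, were at −0.12 ± 0.10 and 0.13 ± 0.09. Crebrf, a regulator of the CREB3 factor, was at 0.08 ± 0.09. None of the 3 passed, and their groups overlapped.

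**Figure D3:**
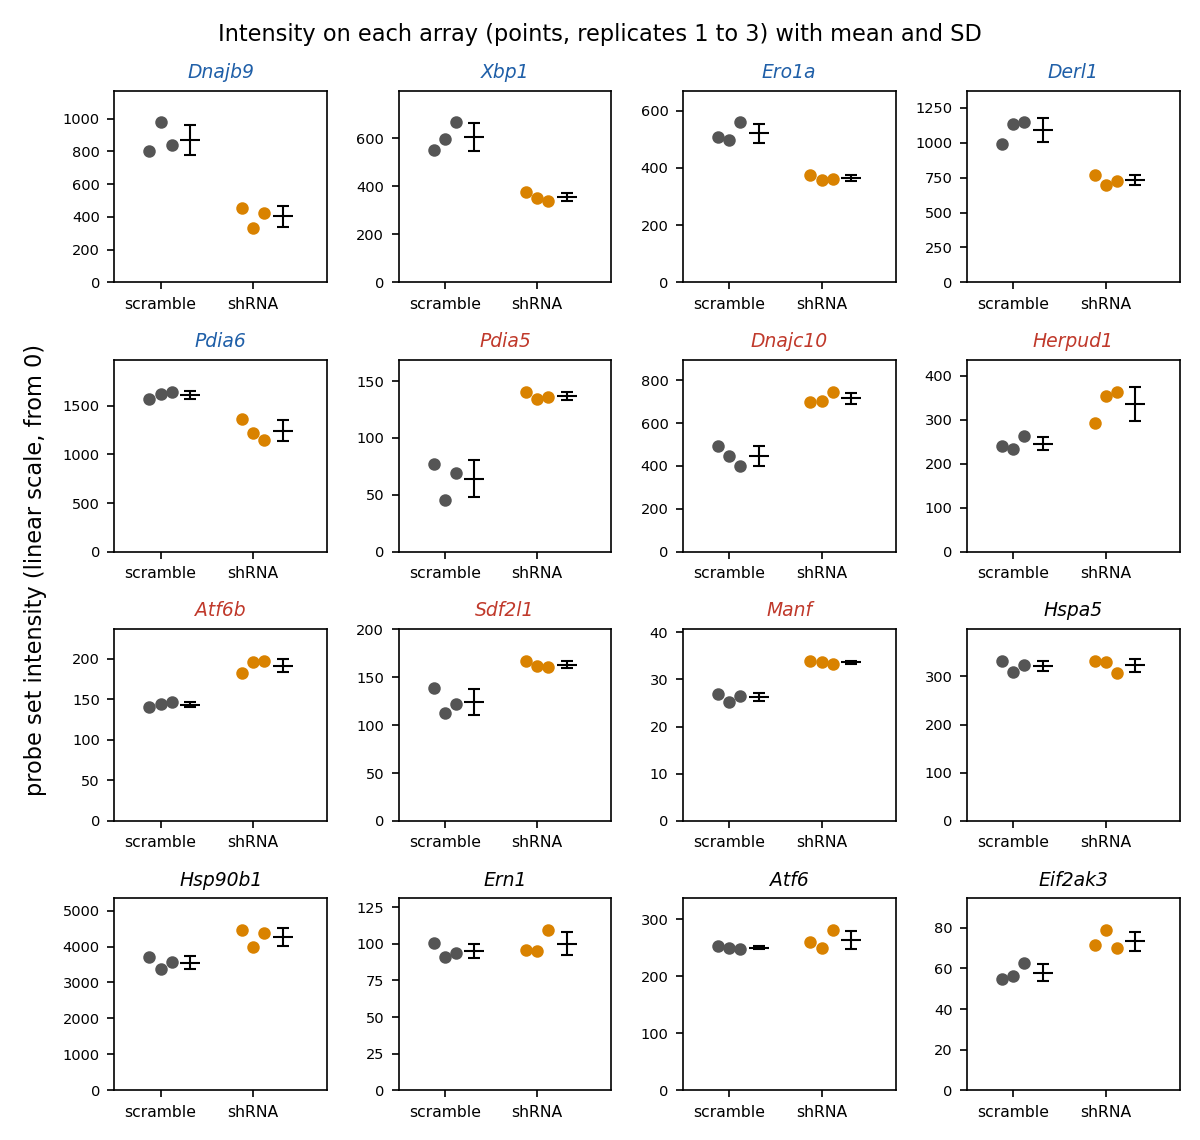
Probe set intensity (y axis, linear, from 0) of the 11 changed ER genes and of Hspa5, Hsp90b1, Ern1, Atf6 and Eif2ak3 on each scramble array (dark points) and shRNA array (orange points), replicates 1 to 3 from left to right, with the mean and SD beside them. Titles are blue for genes that fell, red for genes that rose and black for genes that did not pass. Dnajb9, Xbp1, Ero1a and Derl1 show wide gaps between the groups, while the points of Hspa5, Ern1 and Atf6 overlap.

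Among the lumenal chaperones and BiP co-chaperones, 3 of 10 rose, 1 fell and 6 did not pass, with a median log2 change of 0.23. The share that passed, 40%, stands beside 12.1% of all named genes and 21.7% of those above background. The difference was not tested. Hspa5, the central chaperone and usual readout of ER stress, had intensities of 331, 310 and 325 on the scramble arrays and 332, 330 and 308 on the shRNA arrays. The means were 322 ± 11.04 (SD, n = 3) and 323 ± 13.2 (SD, n = 3), and the points overlapped throughout. The ratio of shRNA to scramble was 1.00, with a 95% confidence interval of 0.875 to 1.15 (adjusted p = 0.982). The sign of this difference was not stable: it was −0.015 with the arrays centred on their medians.

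Dnajb9, the co-chaperone ERdj4, which restrains IRE1 and is a known XBP1 target, had the largest fall of the 36 genes. Its intensities were 802, 977 and 837 on the scramble arrays and 452, 334 and 422 on the shRNA arrays. All shRNA values lay far under all scramble values, with means of 403 ± 61.7 (SD, n = 3) and 872 ± 92.4 (SD, n = 3). The log2 change of −1.12 ± 0.14 corresponds to a level 2.18-fold lower (limma, adjusted p = 0.00230), and it passed without each of the 6 arrays (−1.21 to −0.99, largest adjusted p = 0.0128).

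Dnajc10, the co-chaperone ERdj5, a disulfide reductase that aids degradation, went the other way. It had 493, 446 and 398 on the scramble arrays and 697, 703 and 746 on the shRNA arrays, with no overlap. The log2 change was 0.69 ± 0.10 (1.61-fold higher, adjusted p = 0.00540), and it passed without each single array (0.61 to 0.76, largest adjusted p = 0.0282).

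Sdf2l1, a partner of the co-chaperone ERdj3, had 139, 112 and 122 on the scramble arrays and 167, 161 and 161 on the shRNA arrays. The groups did not overlap, and the change was 0.40 ± 0.10 (adjusted p = 0.0483). It passed without scramble replicate 1 (adjusted p = 0.0336), but not without any one of the other 5 arrays (0.116 to 0.157), nor with median centring (0.0629), cyclic loess (0.0503) or an ordinary t statistic (0.104). Manf, a secreted cofactor of BiP, was dim, with 26.9, 25.3 and 26.6 on the scramble arrays and 33.9, 33.7 and 33.2 on the shRNA arrays. The values within each group were close together, and the change was 0.36 ± 0.08 (adjusted p = 0.0318), but it did not pass without any one array (0.0670 to 0.114).

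Hsp90b1, the ER form of HSP90, had 3719, 3370 and 3557 on the scramble arrays and 4455, 3981 and 4378 on the shRNA arrays. Its groups did not overlap, yet its change, 0.27 ± 0.09, missed the threshold (adjusted p = 0.129). It passed with an offset of 32, with an intensity trend in the prior and without probe sets below the median level. These were 3 of the 12 alternatives that kept every array. With any one array left out Hsp90b1 did not pass (limma, adjusted p = 0.138 to 0.315). The others that did not pass were Creld2 (0.26), the PERK inhibitor gene Dnajc3 (0.20), Dnajb11, which encodes ERdj3 (0.20), and Hyou1, a large HSP70 relative that serves as an exchange factor of BiP (0.20). Of the 10 genes in this group, 9 had a positive estimate, Dnajb9 being the exception, and that of Hspa5 was near 0. Beside this, 11632 of 21996 named genes and 5987 of the 11515 above background had a positive estimate. The count of signs was not tested.

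The lectin chaperones, which hold glycoproteins during folding, did not pass. Calr, the soluble calreticulin gene, averaged 3606 ± 92.6 (SD, n = 3) and 3958 ± 64.5 (SD, n = 3), a change of 0.13 ± 0.08 (adjusted p = 0.412). Canx, the membrane-bound calnexin gene, had 2353 ± 94.1 (SD, n = 3) and 2373 ± 97.7 (SD, n = 3), a change of 0.01 ± 0.09 (adjusted p = 0.962) whose sign turned with median centring.

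The enzymes of oxidative folding split. Of 5 measured, Pdia5 rose, Ero1a and Pdia6 fell, and P4hb and Pdia3 did not pass. The share that passed was 60% of only 5 genes, beside 12.1% of all named genes and 21.7% of those above background. The difference was not tested. Pdia5 had intensities of 77.3, 45.7 and 69.4 on the scramble arrays and 141, 134 and 136 on the shRNA arrays. The shRNA arrays were nearly equal, and scramble replicate 2 was the lowest of all. The log2 change of 1.13 ± 0.18 corresponds to a level 2.19-fold higher (limma, adjusted p = 0.00711), and it was 0.90 without scramble replicate 2 (adjusted p = 0.00763). It passed without each single array but not with an ordinary t statistic (adjusted p = 0.0861).

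Ero1a, the oxidase that recharges protein disulfide isomerases, had 508, 498 and 559 on the scramble arrays and 377, 359 and 360 on the shRNA arrays. The groups were clearly apart, and the change was −0.51 ± 0.09 (1.43-fold lower, adjusted p = 0.00967), passing without each single array (largest adjusted p = 0.0431). Pdia6, a disulfide isomerase that also acts on IRE1, had 1571, 1618 and 1645 on the scramble arrays and 1367, 1221 and 1149 on the shRNA arrays. All shRNA values were lower, with a change of −0.38 ± 0.10 (adjusted p = 0.0475). It passed without shRNA replicate 1 (0.0358), but not without any one of the other 5 arrays (0.0937 to 0.153), nor with quantile normalization (0.0866), cyclic loess (0.0516) or an ordinary t statistic (0.0835). P4hb, the founding disulfide isomerase and a subunit of collagen prolyl hydroxylase, was at −0.25 ± 0.09 (adjusted p = 0.154), and Pdia3, the isomerase that works with calnexin, at 0.17 ± 0.11 (adjusted p = 0.441).

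In ER-associated degradation, 1 of 11 genes rose, 1 fell and 9 did not pass, with a median of −0.05. The share that passed was 18.2%, beside 12.1% of all named genes and 21.7% of those above background. Derl1, which encodes a membrane protein of the retrotranslocation channel, had 989, 1137 and 1145 on the scramble arrays and 769, 696 and 727 on the shRNA arrays. No shRNA value reached a scramble value, and the change was −0.57 ± 0.10 (1.49-fold lower, adjusted p = 0.00889), passing without each single array (largest adjusted p = 0.0428). Herpud1, a stress-induced scaffold of the ubiquitin ligase complex, had 240, 234 and 264 on the scramble arrays and 292, 354 and 364 on the shRNA arrays. The groups did not overlap, though shRNA replicate 1 lay closest to the scramble arrays, and the change was 0.45 ± 0.11 (1.36-fold higher, adjusted p = 0.0440). Without shRNA replicate 1 it was 0.55 (adjusted p = 0.0218); without any one of the other 5 arrays it did not pass (0.0730 to 0.146), nor with an ordinary t statistic (0.125).

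The ligase Syvn1 and its partner Sel1l were at −0.27 ± 0.09 (adjusted p = 0.101) and 0.16 ± 0.08 (adjusted p = 0.325). The mannosidase-like genes Edem1, Edem2 and Edem3, whose products mark misfolded glycoproteins, were at −0.25 ± 0.08, −0.05 ± 0.09 and 0.30 ± 0.09. Edem1 and Edem3 had no overlap between groups but did not pass (adjusted p = 0.108 and 0.0755). The lectin gene Os9 was at 0.03 ± 0.10 and the selenoprotein gene Selenos at −0.17 ± 0.09. The Derl1 paralogs Derl2 and Derl3 were at −0.06 ± 0.09 and 0.06 ± 0.12, and Derl3 lay at background, with means of 10.1 and 10.5.

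**Figure D4:**
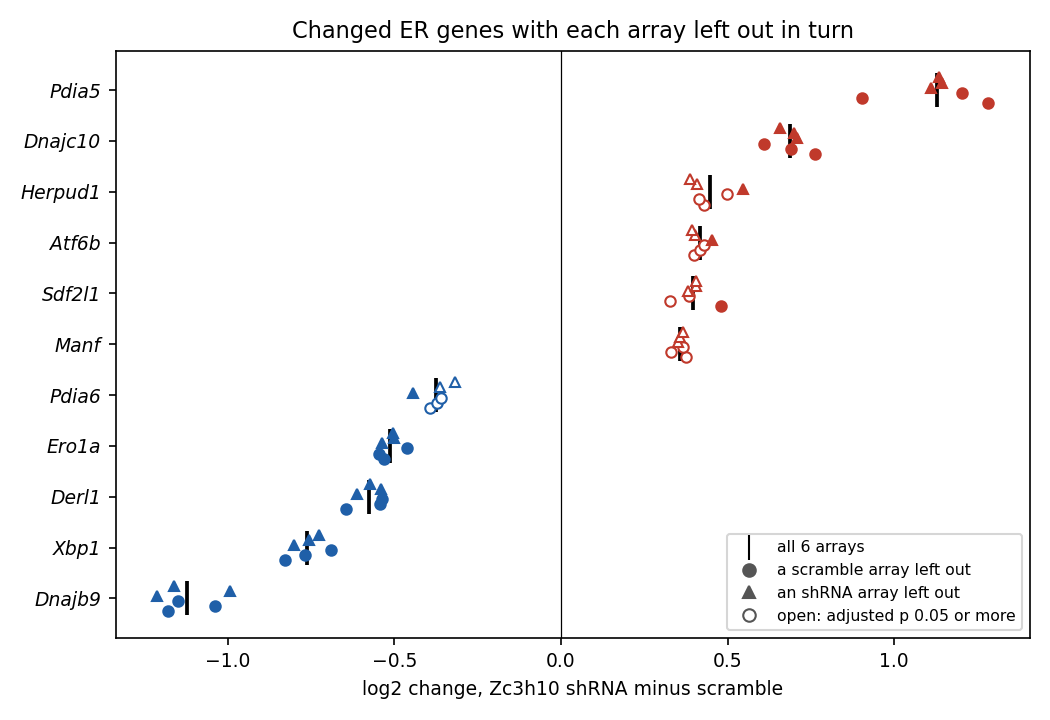
Log2 change (x axis) of the 11 ER genes that passed, with all 6 arrays (black bar) and with each array left out in turn (circles, a scramble array; triangles, an shRNA array); open symbols did not pass. Dnajb9, Xbp1, Derl1, Ero1a, Dnajc10 and Pdia5 have only filled symbols, while Manf has none and Herpud1, Atf6b, Sdf2l1 and Pdia6 have 1 each.

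Other genes of the pathway were read from 8 lists of related ER and chaperone genes, none of them among the 38. Of 173 measured, 11 rose and 25 fell (20.8%), with a median log2 change of 0.02; 12.1% of all named genes and 21.7% of those above background passed. The total of 36 became 23 without scramble replicate 1, 18 without scramble replicate 2, scramble replicate 3 or shRNA replicate 2, and 16 without shRNA replicate 3. With an offset of 32 it became 72, with an intensity trend in the prior 68, and without probe sets below the median level 61. Under these settings the count over all probe sets moved the same way, as given above.

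In the branch below PERK, 1 of 14 genes rose and 4 fell. Ddit3, which encodes the death-associated factor CHOP, had intensities of 132, 140 and 118 on the scramble arrays and 105, 95.9 and 102 on the shRNA arrays. All shRNA values were lower, but the change, −0.36 ± 0.10, missed the threshold (adjusted p = 0.0628). Atf4, the factor that PERK signalling brings to translation, was at −0.02 ± 0.09 (adjusted p = 0.927). Ppp1r15b, a subunit of the phosphatase that reverses PERK's mark, was at −0.81 ± 0.09 (adjusted p = 0.00149), the lipoprotein receptor gene Vldlr at −0.78 ± 0.10, the stress gene Nupr1 at −0.73 ± 0.10 and Cebpg, whose product pairs with ATF4, at −0.49 ± 0.10. The rise was that of Atf3, a stress-induced factor, at 0.44 ± 0.10 (adjusted p = 0.0340), named after its value was seen.

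Among 34 other folding enzymes, 2 rose and 4 fell. The membrane thioredoxin gene Tmx2 was at −0.94 ± 0.09 (adjusted p = 0.00106) and Hspa13, an ER-associated HSP70 relative, at 0.72 ± 0.11. Of the genes for catalytic subunits of collagen prolyl hydroxylase, which pair with P4hb, P4ha1 was at −0.67 ± 0.13 and P4ha3 at 0.43 ± 0.10. P4ha2, named after its value was seen, was at 0.38 ± 0.10 and missed the threshold (adjusted p = 0.0553). In protein entry into the ER, 2 of 23 genes rose and 1 fell: the signal peptidase subunit gene Spcs3 at 0.71 ± 0.10, the translocation helper Tram1 at 0.44 ± 0.08 and the signal recognition particle receptor gene Srpr at −0.50 ± 0.09.

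In N-glycosylation and glycan trimming, 3 of 26 genes rose and 3 fell. Uggt2, whose product returns glucose to unfolded glycoproteins so that the lectin chaperones bind again, was at 1.09 ± 0.15 (adjusted p = 0.00378), with means of 66.3 on the scramble and 139 on the shRNA arrays. Its paralog Uggt1, named after its value was seen, was at 0.41 ± 0.08 (adjusted p = 0.0192). The oligosaccharyltransferase subunit genes Krtcap2 and Magt1 were at 0.45 ± 0.09 and −0.84 ± 0.17, and the mannosyltransferase gene Alg3 at −0.69 ± 0.12.

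Among 21 other genes of ER-associated degradation, 1 rose and 5 fell. Jkamp, which links the ER membrane to the proteasome, was at −1.17 ± 0.15 (adjusted p = 0.00277), Erlin2, an adaptor in the degradation of calcium channels, at −0.68 ± 0.10, the ligase gene Rnf139 at −0.57 ± 0.09 and the lectin gene Erlec1 at 0.38 ± 0.09. In ER export and retrieval, 1 of 22 rose and 4 fell. The cargo lectin gene Lman2 was at −0.58 ± 0.08, and the coat genes Sec23a, Sec24a and Sec24d at −0.56 ± 0.11, −0.37 ± 0.09 and 0.37 ± 0.08. Among 18 other stress and calcium genes, 1 rose and 2 fell: the calcium pump gene Atp2a3 at −0.59 ± 0.10, the membrane-anchored factor Nfe2l1 at −0.47 ± 0.10 and Wfs1 at 0.57 ± 0.13. Among 15 cytosolic heat shock chaperones 2 fell, Hspb8 at −0.57 ± 0.08 and Fkbp4 at −0.39 ± 0.09, and 13 did not pass.

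**Figure D5:**
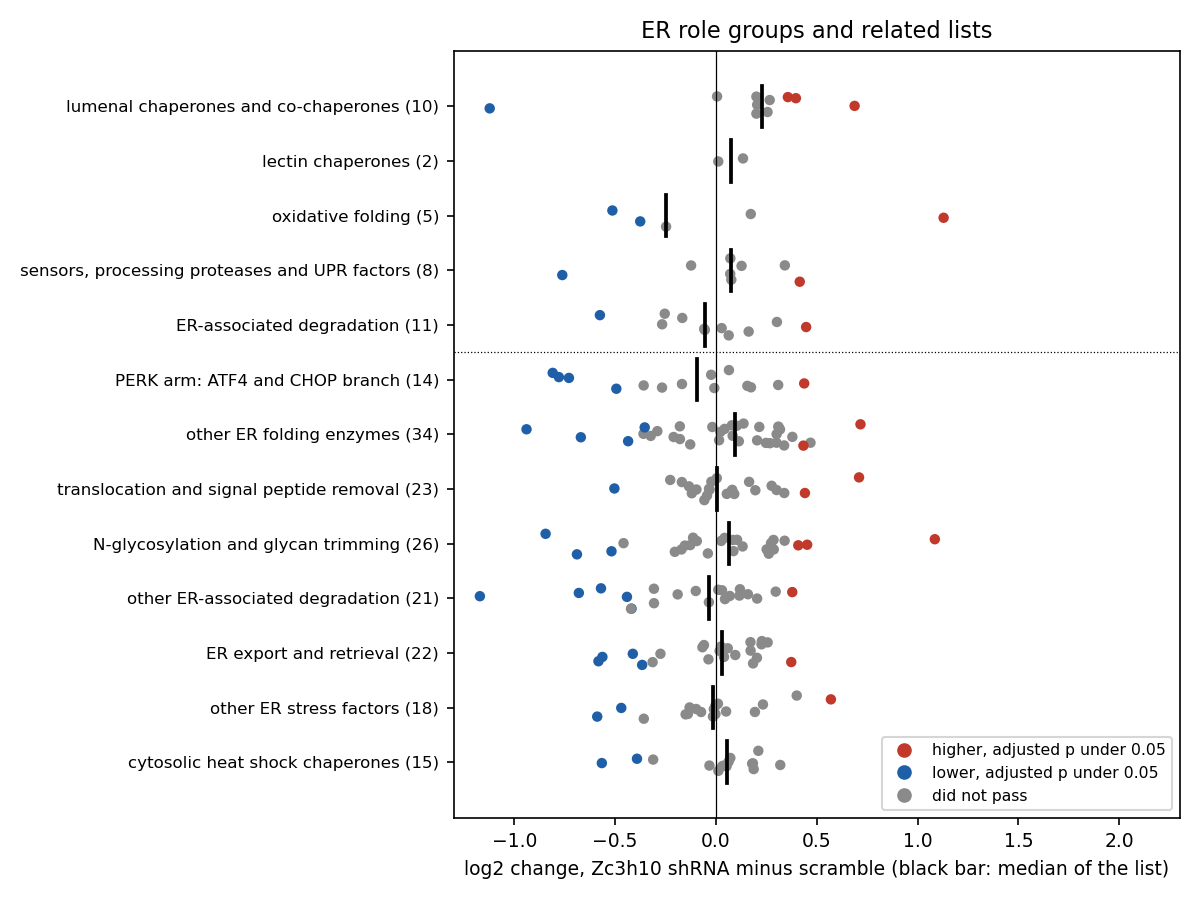
Log2 change (x axis) of each measured gene in the 5 role groups of the ER genes (above the dotted line) and in 8 lists of related genes (below it), with the number of genes in brackets and a black bar at the median of each list. Red and blue points passed; medians lie between −0.25 and 0.23, and all lists but the lectin chaperones hold changed genes.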

How the data were processed

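The authors deposited 1 table of probe set intensities on a linear scale, 1 column per array, from biotin-labelled total RNA. The submitters' processing notes list Affymetrix Expression Console and Partek 6.6. No source used here states the background correction, summarisation or normalization, and dim probe sets depend most on them. Array quartiles were nearly equal.

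Log2 of the intensities, with no offset, entered limma 3.58.1 (R 4.3.3), by lmFit and eBayes with two-sided tests, on 33079 probe sets, without a replicate block; the code was tested on simulated data. Of the probe sets, 23043 had 1 gene symbol, 1740 several and 8296 none here; the highest-mean one stood for a gene. Of 186 genes in the related lists, 173 were measured. The genes and lists were chosen with earlier results of these data known. By rule, values on every array are given for genes that passed and for a fixed set of sensors, chaperones and targets, and up to 4 changed genes with the smallest p are named per related list, with Ddit3 and Atf4. Alternatives were scaling, log offset, filters on dim probe sets, limma prior, ordinary t statistic, array weights, replicate block, probe set choice and each array left out. The replicates are labelled biological, with no further source given.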

Additional observations from a re-analysis of the deposited data

How the results depend on the processing

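The median log2 change of the 36 ER genes, 0.07, stayed within 0.05 to 0.11 under 18 alternatives, and 4 of the 5 role groups held changed genes in each of them except the offset of 32, where 5 did. With 1 array left out, 6 to 9 ER genes, 16 to 33 genes of the related lists and 1807 to 2578 probe sets passed. Higher counts came with an offset of 32 (22 ER genes, 72 related genes and 4457 probe sets) and an intensity trend in the prior (19, 68 and 4492). Leaving out probe sets below the median level gave 17, 61 and 4454 of 16540. The ordinary t statistic called 1972 probe sets. With the replicate number as a block, 6 ER genes and 21 related genes passed; Atf6b (adjusted p = 0.0513), Herpud1 (0.0607), Sdf2l1 (0.0756), Manf (0.0799) and Pdia6 (0.10) did not. Whether replicates of the same number were prepared together is not stated. Their deviations from the group means correlated at −0.005 to 0.084, and those of unlike number at −0.093 to 0.061. With so few arrays these values cannot decide whether the replicates pair. Signs turned for genes near 0: Hspa5 was at −0.015 with median centring, −0.002 with array weights, and −0.022 to 0.040 with 1 array left out. Canx was at −0.009 with median centring and −0.017 to 0.046 with 1 array left out. Without scramble replicate 2, Canx was at −0.017, Derl3 at −0.023 and Os9 at −0.008. With 1 array left out, Derl2 ranged from −0.112 to 0.005, Derl3 from −0.023 to 0.121 and Os9 from −0.008 to 0.083. Without shRNA replicate 1, Hspa5 was at −0.014 and Canx at −0.011. Without shRNA replicate 2, Hspa5 was at −0.009, Derl2 at 0.005, Derl3 at −0.022 and Os9 at −0.005. None of the 11 ER genes that passed turned sign, and 5 of them (Dnajb9, Dnajc10, Xbp1, Ero1a and Derl1) passed under every alternative. The cause of these shifts was not tested. Derl3 lay at background, and Manf was dim but above it, with means of 26.2 and 33.6 against a limit of 20.7.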
